A study of Mus musculus with 12 samples.

Results

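The 3 paraoxonase genes of the mouse, *Pon1*, *Pon3* and *Pon2*, were followed in RNA-seq libraries of interscapular brown adipose tissue (BAT). The members were selected by gene symbol, which gave 3 of the 25124 genes in the table, and the family was chosen because *Pon1* is much lower without *Txnip*, so the comparison of genotypes is a description for these genes and carries no test. *Txnip* encodes thioredoxin-interacting protein, an arrestin-like protein that binds thioredoxin and restrains glucose uptake. The 12 libraries came from male mice aged 10 weeks in 4 groups of 3: WT at room temperature (RT, 23 °C), *Txnip*-/- at RT, WT after 1 week at thermoneutrality (TN, 30 °C) and *Txnip*-/- after 1 week at TN. No other allele or agent is named for any group. The *Txnip*-/- line was kept on a C57B/6J background. The *Txnip*-/- mice were deficient in the whole body and not in brown adipocytes alone, and the WT animals were littermates. Each library was taken as 1 mouse, which the labels do not state outright, so p-values measure the spread between these libraries.

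Paraoxonases are calcium-dependent enzymes that open lactone rings and, to different degrees, cleave esters, among them oxidised lipids. PON1 and PON3 are known mainly as liver products that travel on high-density lipoprotein (HDL), and PON1 also hydrolyses the organophosphate paraoxon that gave the family its name. PON2 stays inside cells, is made in most tissues, and is known for limiting superoxide release from mitochondria and stress in the endoplasmic reticulum.

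The genes lie side by side on the minus strand of chromosome 6 (mm10). *Pon1* (NM_011134) occupies chr6:5168090-5193946, *Pon3* (NM_173006) chr6:5216256-5256233 and *Pon2* (NM_183308) chr6:5264620-5298340, with 22.3 kb between *Pon1* and *Pon3*, 8.39 kb between *Pon3* and *Pon2* and 130.3 kb from the first base to the last. The counted transcripts were 1502, 6369 and 1810 bases long, respectively. Annotated exons of *Pon1* and *Pon3* overlapped no exon of another gene in GENCODE, whereas those of *Pon2* overlapped the opposite-strand gene *Gm44424*. Whether counting used the strand is not given in the sources used here, so reads of that pair cannot be told apart and the *Pon2* level is uncertain to that extent.

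The 250 bases before each start are shown because the members, although neighbours, differed in level and in their change with genotype, and their upstream sequences differ as well. Whether these sequences bear on the level or the change was not tested. The sequences are RefSeq's on GRCm38.p6, read 5′ to 3′ along the minus strand. Capitals mark GGGCGG, the core bound by Sp1, and GCGTG, the core bound by the aryl hydrocarbon receptor (CACGC where it lies on the opposite strand).
Pon1, chr6:5193947-5194196: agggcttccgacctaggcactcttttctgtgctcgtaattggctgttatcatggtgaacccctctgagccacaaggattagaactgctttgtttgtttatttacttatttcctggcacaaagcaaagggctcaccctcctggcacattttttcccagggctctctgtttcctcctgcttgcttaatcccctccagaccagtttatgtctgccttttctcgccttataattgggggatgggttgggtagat
Pon3, chr6:5256234-5256483: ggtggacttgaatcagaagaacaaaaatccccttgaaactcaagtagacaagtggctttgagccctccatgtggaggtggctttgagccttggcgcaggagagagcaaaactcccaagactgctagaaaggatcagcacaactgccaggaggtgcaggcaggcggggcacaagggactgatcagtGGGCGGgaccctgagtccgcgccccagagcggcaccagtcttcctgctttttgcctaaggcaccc
Pon2, chr6:5298341-5298590: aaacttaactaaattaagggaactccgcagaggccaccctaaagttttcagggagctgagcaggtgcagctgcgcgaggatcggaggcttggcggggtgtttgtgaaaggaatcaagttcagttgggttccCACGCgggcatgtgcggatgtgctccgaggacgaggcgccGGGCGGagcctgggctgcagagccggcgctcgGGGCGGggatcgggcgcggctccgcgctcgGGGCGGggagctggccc
The *Pon1* stretch held 47.6% G and C and 3 CpG pairs, the *Pon3* stretch 56.8% and 6, and the *Pon2* stretch 65.6% and 24, where the median of 32841 promoters was 52.4% and 6. On both strands, GGGCGG was found 0 times before *Pon1*, 1 time before *Pon3* and 3 times before *Pon2*, and 32.8% of all promoters hold it in a window of this length. GCGTG was found only before *Pon2*, 1 time, against 28.2% of all promoters. The E-box CACGTG, present in 6.02% of promoters, and a direct repeat of AGGTCA with 1 base between the copies, present in 0.0335%, were found before none of the 3. These matches describe letters in a window and were not tested as binding sites.

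Libraries held 29.9 to 47.4 M reads by the deposited headers, and libraries of 1 group correlated at r of 0.985 to 0.993. *Txnip* itself averaged 613 ± 70.8 TPM (a library's transcripts scaled for length and depth, SD, n = 3) in RT WT and 29.0 ± 5.59 in RT *Txnip*-/-, and 1131 ± 92.7 against 11.98 ± 2.12 at TN, and the genotypes did not overlap at either temperature, as the labels call for. Brown adipocyte markers were abundant, at a summed 2975 to 10652 TPM for 10 genes. Of 15 hepatocyte markers 14 stayed at or under 0.27 TPM in every library, albumin (*Alb*) at 0 to 0.155 TPM among them, and the other one, *Cyp2e1*, ranged from 10.1 to 42.7 TPM with overlapping genotypes.

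All 3 members were detected in all 12 libraries. TPM is per length, so levels of the genes can be set side by side. Over the 12 libraries *Pon3* averaged 51.3 TPM, above 85.8% of the 12486 genes with a mean of at least 1 TPM, *Pon2* averaged 29.0 TPM, above 75.9%, and *Pon1* averaged 9.28 TPM, above 45.2%. *Pon3* was the highest and *Pon1* the lowest of the 3 in every group by mean.

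*Pon1* had the widest range over the groups as a ratio, though not in TPM, where the higher *Pon3* spanned more. Its level was 17.3, 17.4 and 11.8 TPM in the RT WT libraries 1, 2 and 3, and 1.97, 1.83 and 1.495 TPM in RT *Txnip*-/-. At TN it was 25.98, 11.2 and 15.5 TPM in WT and 2.06, 2.76 and 2.02 TPM in *Txnip*-/-. The lowest WT library thus stood well above the highest *Txnip*-/- library, although the TN WT libraries spread widely among themselves. The group means were 15.5 ± 3.22 and 1.76 ± 0.242 TPM at RT (SD, n = 3), and 17.6 ± 7.59 and 2.28 ± 0.416 TPM at TN. *Pon1* in *Txnip*-/- was therefore 11.4% of its WT mean at RT and 13.0% at TN. On the log2(TPM + 1) scale, which understates the change of low genes, the difference of *Txnip*-/- from WT was -2.56 (SE 0.157) at RT and -2.43 (SE 0.256) at TN.

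*Pon3* moved the same way by much less. It stood at 60.6, 60.9 and 55.7 TPM in RT WT and at 45.4, 45.3 and 47.3 TPM in RT *Txnip*-/-. At TN the values were 69.3, 53.6 and 50.9 TPM in WT and 44.4, 38.5 and 43.1 TPM in *Txnip*-/-. Every *Txnip*-/- library was below every WT library of its temperature, and the *Txnip*-/- mean was 77.8% of the WT mean at RT and 72.5% at TN. The log2 differences were -0.35 (SE 0.0594) and -0.44 (SE 0.119). The RT log2 table deposited by the authors counted another *Pon3* transcript, 6599 bases long, than the TPM table did.

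*Pon2* did not share this pattern. It stood at 28.6, 30.6 and 30.1 TPM in RT WT and at 26.8, 27.4 and 30.5 TPM in RT *Txnip*-/-, and these groups overlapped. At TN it was 24.9, 26.9 and 27.8 TPM in WT and 29.8, 33.4 and 30.7 TPM in *Txnip*-/-, so here the *Txnip*-/- libraries were the higher ones without overlap. The log2 differences were -0.08 (SE 0.0699) at RT and 0.23 (SE 0.0738) at TN. The genotype difference at TN minus that at RT was 0.30 (SE 0.0983) for *Pon2*, 0.13 (SE 0.338) for *Pon1* and -0.09 (SE 0.142) for *Pon3*, and these were not tested because the same contrast chose the family.

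**Figure D1:**
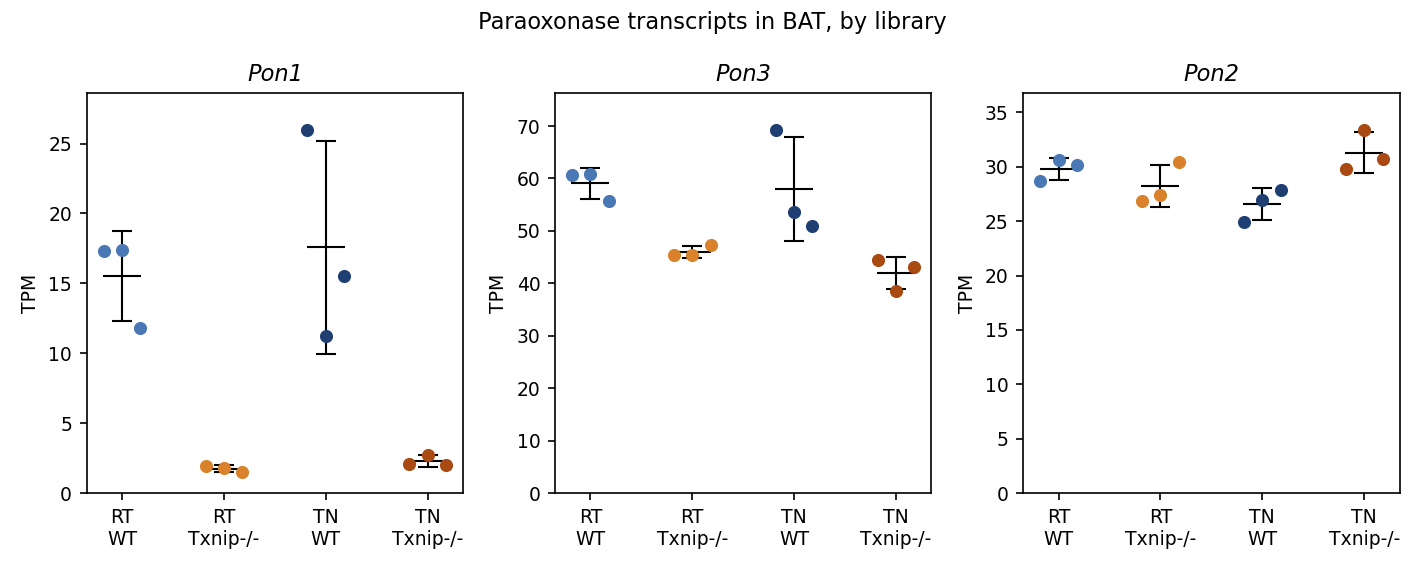
Level of each paraoxonase gene in TPM (linear axis from 0) in the 12 BAT libraries. Points are libraries, with the group mean and SD as black bars. *Pon1* was at or below 2.76 TPM in all *Txnip*-/- libraries and at or above 11.2 TPM in all WT libraries, whereas *Pon2* stayed between 24.9 and 33.4 TPM throughout.

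For 2 of 3 members at RT and 3 of 3 at TN the libraries of the genotypes did not overlap. Over all genes tested, 22.6% did not overlap at RT and 31.1% at TN, but since the rule used this contrast nothing is read from the members' count. In bulk tissue, fewer cells that make a transcript and less of it per cell cannot be told apart.

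The order of the groups differed by member. For *Pon1* the mean fell from TN WT to RT WT to TN *Txnip*-/- to RT *Txnip*-/-. The 2 WT groups overlapped, as their means were 2.06 TPM apart with an SD of up to 7.59 TPM, while the 2 *Txnip*-/- groups were 0.518 TPM apart without overlap. For *Pon3* both WT groups came first, RT before TN and overlapping, followed without overlap by *Txnip*-/- at RT and then at TN. For *Pon2* the highest mean was that of *Txnip*-/- at TN, followed by WT and *Txnip*-/- at RT and last by WT at TN, and each group overlapped the next.

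Together the 3 genes summed to 104 ± 5.96 TPM in RT WT and 102 ± 15.7 TPM in TN WT, and to 76.0 ± 2.83 and 75.6 ± 0.81 TPM in *Txnip*-/- (SD, n = 3). The makeup of that sum shifted. *Pon1* supplied 14.8% of it in RT WT and 16.8% in TN WT, but 2.33% in RT *Txnip*-/- and 3.02% in TN *Txnip*-/-. *Pon3* kept a share of 55.5% to 60.5% by group mean, and *Pon2* took up the rest, with 28.6% and 26.5% in the WT groups and 37.1% and 41.4% in the *Txnip*-/- groups. The ratio of *Pon3* to *Pon1* was 3.91 ± 0.706 in RT WT and 26.5 ± 4.52 in RT *Txnip*-/-, and 3.58 ± 1.085 against 18.9 ± 4.32 at TN.

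Cell type markers moved with genotype in the same libraries. A gene was called where limma on log2(TPM + 1) gave a log2 difference of more than 0.32 in either direction and a Benjamini-Hochberg adjusted p under 0.05. Of 11980 genes tested at RT 0.760% were called higher and 0.726% lower in *Txnip*-/-, and of 12891 at TN 6.49% and 2.17%. The 10 macrophage markers summed to 71.8 to 82.9 TPM in RT WT and 121 to 198 TPM in RT *Txnip*-/-, with 4 of 9 tested called higher (1 of them, *Ccr2*, at a mean of 0.951 TPM in WT, under the filter), and to 158 to 279 against 459 to 638 TPM at TN, with 10 of 10 called higher. The 10 fibroblast markers summed to 364 to 497 TPM in TN WT and 851 to 863 TPM in TN *Txnip*-/-, with 7 of 9 called higher, and 0 of 9 were called at RT, where they summed to 214 to 269 and 268 to 324 TPM. The 10 brown adipocyte markers summed to 10102 to 10652 TPM in RT WT and 7606 to 9752 TPM in RT *Txnip*-/-, with 1 of 10 called lower, and to 5760 to 6573 against 2975 to 3553 TPM at TN, with 6 of 10 called lower. The 10 skeletal muscle markers summed to 2.66 to 3.24 TPM in RT WT and 23.2 to 58.6 TPM in RT *Txnip*-/-, while their ranges at TN overlapped, 2.95 to 18.9 and 3.82 to 18.1 TPM. No count of calls is given for them, since at RT most of those tested passed the filter on low TPM only through the *Txnip*-/- libraries. When 1 library was left out, the RT counts ran from 0 to 5 for macrophage and 0 to 2 for brown adipocyte markers. The TN counts then ran from 9 to 10 for macrophage, 6 to 8 for fibroblast and 2 to 6 for brown adipocyte markers. Of 7 white adipocyte markers tested 0 were called at RT and 3 were called higher at TN, and of 10 endothelial markers 0 and 1. Leaving out 1 library gave 1 to 2 white adipocyte and 0 to 1 endothelial markers called higher at TN, so the count of 3 held in none of those fits. None of the 10 genes of any of these lists was at 0 throughout a group. The part of these shifts in the paraoxonase differences was not tested.

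Temperature was not used to choose the genes, and here the members were tested. The test was limma on log2(TPM + 1) over 12486 genes, with the same rule for a call. Temperature changed many genes of BAT, with 31.4% called higher and 6.39% called lower at TN in WT, and 30.9% higher and 8.27% lower in *Txnip*-/-. Of the calls 83.1% were upward in WT and 78.9% in *Txnip*-/-, or 70.4% and 68.8% when libraries were scaled to a common upper quartile. Among the paraoxonases 0 of 3 were called in either genotype, and 1 in WT and 0 in *Txnip*-/- had an unadjusted p under 0.05.

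*Pon1* was not called between temperatures. The log2 difference of TN from RT was 0.11 (95% interval -0.41 to 0.63, limma adjusted p = 0.721) in WT and 0.24 (-0.28 to 0.77, adjusted p = 0.411) in *Txnip*-/-. These intervals are wide enough to hold a change past the fold threshold in either direction in WT. TN WT library 1, with 25.98 TPM, set the sign: without it the WT difference was -0.20, and without RT WT library 3, with 11.8 TPM, it was -0.06.

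*Pon3* gave narrower intervals, with -0.04 (-0.26 to 0.18, adjusted p = 0.764) in WT and -0.13 (-0.35 to 0.09, adjusted p = 0.294) in *Txnip*-/-. In WT its sign also hung on single libraries, as leaving out TN WT library 2 or 3 gave 0.01 or 0.05. *Pon2* gave -0.16 (-0.31 to -0.01, adjusted p = 0.0734) in WT and 0.14 (-0.01 to 0.30, adjusted p = 0.103) in *Txnip*-/-. Both intervals for *Pon2* end within 0.32 of 0 on the log2 scale. With upper-quartile scaling the WT difference of *Pon2* became -0.26 (limma adjusted p = 0.0080), still short of the fold threshold.

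**Figure D2:**
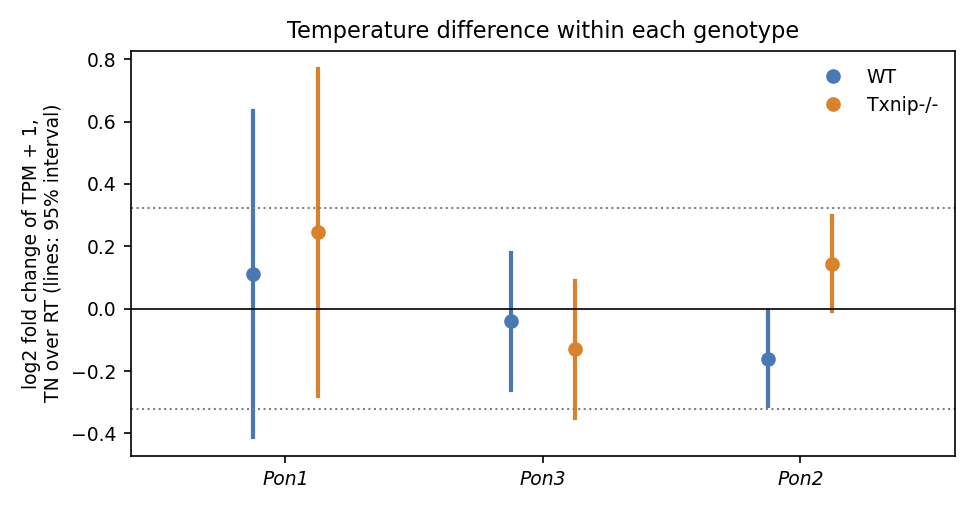
Log2 difference of TN from RT for each member in WT and in *Txnip*-/-, with 95% intervals from limma over all 12 libraries. Dotted lines mark log2 differences of -0.32 and 0.32, the fold thresholds. No member was called, and the *Pon1* intervals are the widest.

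By library, 1 of 3 members in WT (*Pon2*, lower at TN) and 2 of 3 in *Txnip*-/- (*Pon1* higher, *Pon3* lower) had temperature groups that did not overlap. The share over all genes was 57.5% in WT and 61.1% in *Txnip*-/-, so the members did not stand out.

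Within groups *Pon1* was also the most variable member. Its coefficient of variation was 20.7% and 13.7% in WT and *Txnip*-/- at RT, and 43.2% and 18.2% at TN. In the same order it was 4.96%, 2.43%, 17.1% and 7.36% for *Pon3* and 3.42%, 6.95%, 5.59% and 6.01% for *Pon2*. TN WT library 1 held the highest *Pon1* and the highest *Pon3* of all 12 libraries and the lowest *Pon2*. Across the 12 libraries *Pon1* and *Pon3* correlated at r = 0.88, *Pon1* and *Pon2* at r = -0.38 and *Pon3* and *Pon2* at r = -0.53, as a description of libraries that share groups. After each group's mean was taken off, *Pon1* and *Pon3* had r = 0.62 over the 12 libraries. Split by genotype, a split made after the values were seen, this was r = 0.86 in the 6 WT libraries and r = -0.92 in the 6 *Txnip*-/- libraries, where *Pon1* deviated by at most 0.20 on the log2 scale. TN WT library 1 lay farthest from its group mean for both genes, and no test was made of either value.

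**Figure D3:**
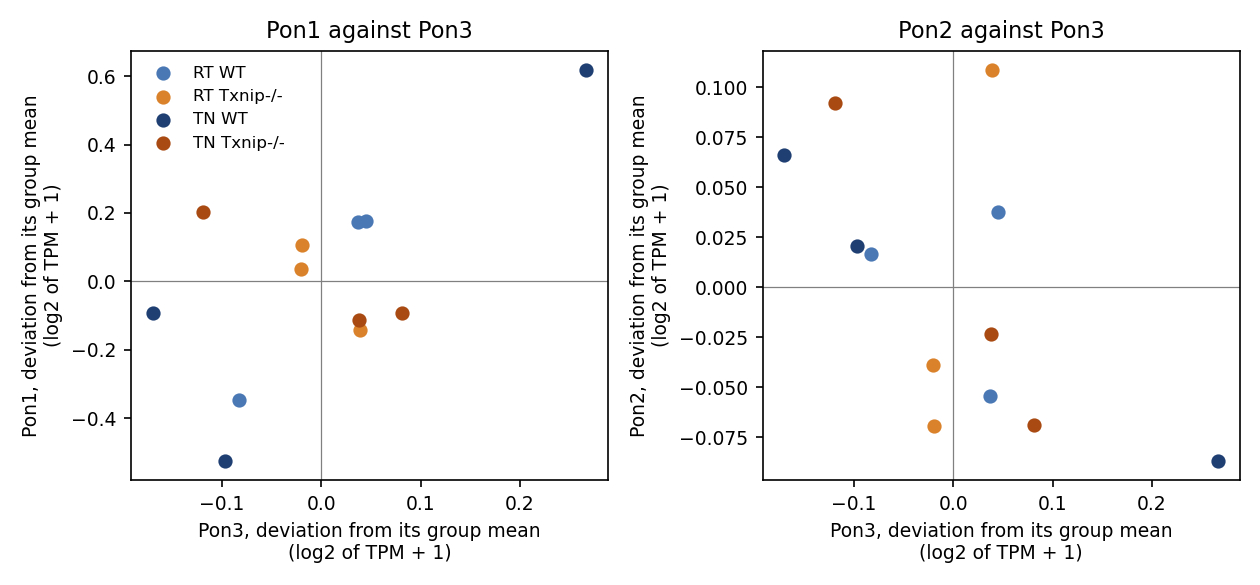
Deviation of *Pon1* (left) and *Pon2* (right) from the group mean against that of *Pon3*, in log2(TPM + 1), for the 12 libraries coloured by group. TN WT library 1 lies at the far right in both panels, highest for *Pon1* and lowest for *Pon2*.

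The genes whose levels followed each member most closely were named by the highest r of log2(TPM + 1) over the 12 libraries, again without a test. For *Pon1* they were *Oxct1* (r = 0.97), which activates ketone bodies for oxidation, *Aldh2* (0.97), a mitochondrial aldehyde dehydrogenase, *Car3* (0.96), carbonic anhydrase III, *Aldh1l1* (0.96), which oxidises formyl-tetrahydrofolate, and *Pccb* (0.95), a subunit of propionyl-CoA carboxylase. With group means removed the r of these 5 was 0.84, 0.62, 0.75, 0.41 and 0.41. *Oxct1* averaged 132 and 71.4 TPM in WT and *Txnip*-/- at RT and 157 and 84.9 TPM at TN, and *Car3* 3723 and 1682 TPM at RT and 3668 and 2121 TPM at TN. Both were thus lower in *Txnip*-/- at either temperature, by a smaller factor than *Pon1*. Since the r that chose them holds the genotype difference of *Pon1*, nothing is read from this direction.

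For *Pon3* the closest genes were *Etfa* (r = 0.97), a subunit of the electron transfer flavoprotein, *Gcdh* (0.96), glutaryl-CoA dehydrogenase, *Ivd* (0.96), isovaleryl-CoA dehydrogenase, *Slc24a3* (0.95), a sodium, potassium and calcium exchanger, and *Echs1* (0.95), an enoyl-CoA hydratase. Removing group means left the r of these 5 at 0.96, 0.91, 0.86, 0.77 and 0.93. *Ivd* averaged 124 and 82.0 TPM in WT and *Txnip*-/- at RT and 107 and 71.4 TPM at TN. For *Pon2* the r was lower: *Map11* (0.89), a microtubule-associated protein, *Cish* (0.87), an inhibitor of cytokine signalling, *Csk* (0.86), a kinase that restrains Src, *Loxl1* (0.86), a lysyl oxidase, and *Sec61b* (0.85), part of the channel into the endoplasmic reticulum. *Cish* ran from 4.70 to 61.7 TPM over the libraries, a far wider span than *Pon2*. By rank correlation 2, 2 and 4 of the 5 genes stayed among the closest 5 for *Pon1*, *Pon3* and *Pon2*.

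The other genes around the cluster were examined within 500 kb of its ends. There were 7, of which *Sgce*, *Ppp1r9a* and *Pdk4* passed the filter of a mean of 1 TPM. The imprinted *Peg10* stayed between 0.348 and 0.793 TPM, *Asb4* between 0.286 and 0.997 TPM, and *Dync1i1* and the non-coding *Gm20714* at or under 0.302 TPM. In the genotype comparison 0 of the 3 tested neighbours were called at RT and 0 of 3 at TN. Over all genes tested 0.760% were called higher and 0.726% lower at RT, and 6.49% and 2.17% at TN. With shares this low, nothing is read from a count of 0 of 3. Within 1000 kb 5 genes were tested, of which 0 were called at RT and 1 at TN, the collagen gene *Col1a2*, 627 kb from the cluster on the side of *Pon1* and on the list of fibroblast markers, at 57.3 ± 10.01 TPM in WT and 134 ± 8.49 TPM in *Txnip*-/- (log2 1.23, SE 0.121, limma adjusted p = 0.0030). At each temperature 1 of the 3 had an unadjusted limma p under 0.05. *Pdk4*, a kinase that shuts pyruvate dehydrogenase and lies 185 kb beyond *Pon2*, was the most abundant gene of the region.

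*Pdk4* stood at 1035, 965 and 1032 TPM in RT WT and 1329, 1170 and 1198 TPM in RT *Txnip*-/-. At TN it was 665, 602 and 617 TPM in WT and 741, 777 and 661 TPM in *Txnip*-/-, where 1 *Txnip*-/- library fell within the WT range. The log2 difference by genotype was 0.28 (SE 0.0648, adjusted p = 0.0898) at RT and 0.21 (SE 0.0847, adjusted p = 0.172) at TN, opposite in sign to *Pon1*. *Ppp1r9a*, which encodes an actin-binding scaffold and ends 2.43 kb from *Pon1*, gave -0.16 (SE 0.117, adjusted p = 0.553) and -0.31 (SE 0.143, adjusted p = 0.221). *Sgce*, the epsilon-sarcoglycan gene, gave 0.01 (SE 0.0662, adjusted p = 0.958) and 0.14 (SE 0.0731, adjusted p = 0.269). The lowest value among these neighbours, -0.31, was far smaller in size than that of *Pon1*.

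Temperature changed 2 of the 3 tested neighbours in WT and 3 of 3 in *Txnip*-/-. Over all genes 31.4% were called higher and 6.39% lower in WT, and 30.9% and 8.27% in *Txnip*-/-, and 3 genes are too few to set the region apart. *Pdk4* was lower at TN in both genotypes, with log2 differences of -0.69 (SE 0.0749, limma adjusted p = 9.58e-05) in WT and -0.76 (SE 0.0749, adjusted p = 2.32e-05) in *Txnip*-/-. *Ppp1r9a* was higher in both, by 0.58 (SE 0.139, adjusted p = 0.00503) and 0.44 (SE 0.139, adjusted p = 0.0206), although the second call was lost without RT *Txnip*-/- library 2 or 3 or TN *Txnip*-/- library 1, with values from 0.34 to 0.53 when 1 library was left out. *Sgce* was called higher in *Txnip*-/-, at 0.39 (limma adjusted p = 0.000545), a call lost with upper-quartile scaling, and gave 0.25 (adjusted p = 0.00762) in WT, short of the fold threshold, and the difference between the genotypes, 0.13 (SE 0.0922, limma adjusted p = 0.578), did not pass the test.

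**Figure D4:**
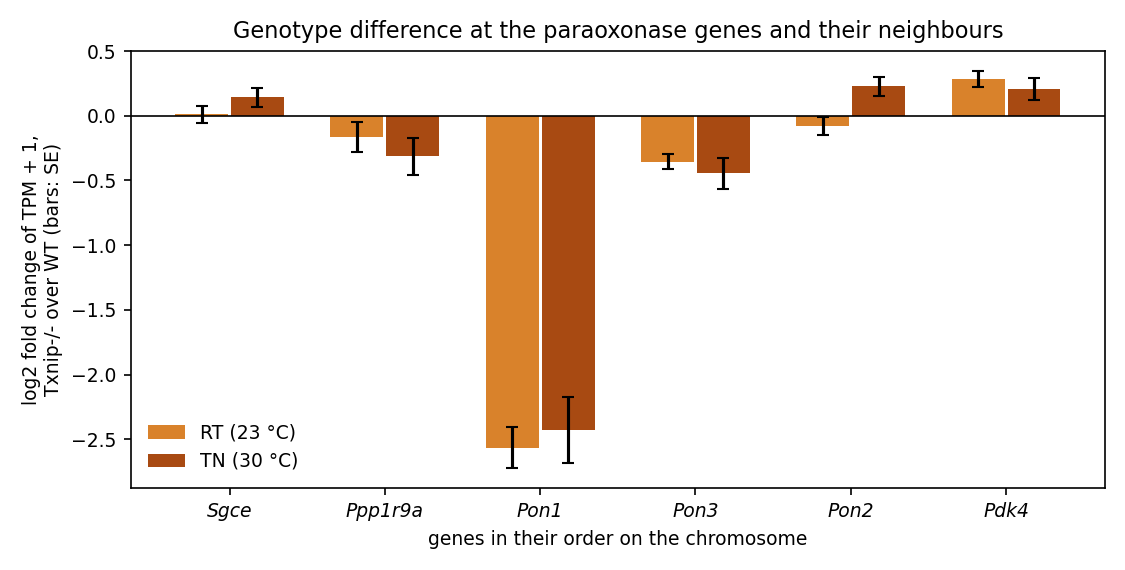
Log2 difference of *Txnip*-/- from WT at RT and at TN, with SE, for the 6 genes of the region that passed the filter, in chromosome order and not to scale. *Pon1* stands at -2.56 and -2.43, and the next lowest value is that of *Pon3* at TN, -0.44.

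Lists of related genes were then counted in each comparison, beside the shares of all genes given above. HDL and lipoprotein partners, among them proteins, receptors and enzymes of the particles that carry secreted paraoxonases, numbered 25, of which 13 or 14 were tested. At RT 1 was called higher and 1 lower in *Txnip*-/-, with a median log2 difference of -0.09 against 0.03 over all genes, and at TN 3 were called higher and 0 lower, with a median of 0.28 against 0.01. *Clu*, the secreted chaperone clusterin found on HDL with PON1, showed the largest change. It stood at 9.07, 10.3 and 9.33 TPM in RT WT and 41.8, 23.2 and 22.8 TPM in RT *Txnip*-/-. At TN it rose from 23.3, 29.9 and 32.9 TPM in WT to 230, 175 and 234 TPM in *Txnip*-/-. The groups were apart at both temperatures, with log2 differences of 1.46 (SE 0.216, adjusted p = 0.0291) and 2.85 (SE 0.15, adjusted p = 0.000214).

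Haptoglobin (*Hp*), which binds free haemoglobin, was lower in RT *Txnip*-/- (350 ± 9.61 against 537 ± 58.5 TPM, log2 -0.61, adjusted p = 0.0256), and in TN *Txnip*-/- it gave 0.32 (adjusted p = 0.316). At TN the phospholipid transfer protein *Pltp* was higher (84.1 ± 5.76 against 49.7 ± 3.87 TPM, log2 0.75, adjusted p = 0.00383), as was the cholesterol exporter *Abcg1* (6.51 ± 0.351 against 4.70 ± 0.375 TPM, log2 0.40, adjusted p = 0.0274). The calls at RT hung on single libraries: that of *Clu* held only without RT *Txnip*-/- library 1 and that of *Hp* only without RT WT library 3 among the 6 fits that left out 1 library, with log2 values of 1.19 to 1.61 and -0.70 to -0.56. Both were also lost with no filter on low TPM, and that of *Hp* with all 12 libraries in 1 fit. *Abcg1* at TN held only without TN WT library 3, with values of 0.36 to 0.45, and was lost with no filter, with the replicate number as a block and with the deposited log2 values. With temperature, 3 of 14 rose and 4 fell in WT, and 6 rose and 2 fell in *Txnip*-/-, with medians of -0.06 and 0.21 against 0.18 and 0.15 over all genes. *Clu* rose in both genotypes, by 1.48 and 2.87 on the log2 scale. In WT *Abcg1* rose by 0.80 and *Apoe*, an apolipoprotein, by 0.55, while the endothelial lipase gene *Lipg* fell by 0.70 and the cholesterol exporter *Abca1* by 0.42. In *Txnip*-/- *Abcg1* and *Apoe* rose too, from means of 3.33 to 6.51 TPM and 1294 to 1911 TPM. For *Abcg1*, *Apoe*, *Lipg* and *Abca1* the difference between the genotypes did not pass the test (limma adjusted p = 0.996, 0.981, 0.543 and 0.422). *Apoc3*, which restrains lipolysis of lipoproteins, fell in both genotypes, by 0.75 and 0.56. Its means were low, 1.31 and 1.63 TPM in WT and *Txnip*-/- at RT and 0.379 and 0.786 TPM at TN. It thus passed the filter of 1 TPM only through the RT libraries, and in 9 of the fits that left out 1 library. In *Txnip*-/- *Apod* rose by 1.07 and *Hp* by 1.05, and the lipoprotein lipase gene *Lpl* fell by 0.36. *Lpl* fell in WT too, from a mean of 1438 to 1081 TPM. For *Apod*, *Hp* and *Lpl* the difference between the genotypes did not pass the test (limma adjusted p = 0.534, 0.155 and 0.894). The *Abca1* call was lost without TN WT library 3, that of *Apoc3* in *Txnip*-/- without TN *Txnip*-/- library 1 or 3 or with a pseudocount of 0.1, and that of *Lpl* there without RT *Txnip*-/- library 2 or TN *Txnip*-/- library 3.

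Other lactonases and esterases, enzymes of like reactions, numbered 32, of which 14 or 15 were tested. In *Txnip*-/- 0 were called higher and 1 lower at RT, and 1 higher and 2 lower at TN, with medians of -0.13 and -0.12. *Bche*, which encodes butyrylcholinesterase, a secreted esterase that like PON1 meets organophosphates, was the gene of the list called lower at both temperatures. It stood at 14.6, 13.7 and 11.8 TPM in RT WT and 8.45, 9.41 and 8.52 TPM in RT *Txnip*-/-, and at 19.1, 15.1 and 13.4 against 8.74, 5.95 and 10.2 TPM at TN. The genotypes did not overlap at either temperature, with log2 differences of -0.55 (SE 0.0963, adjusted p = 0.0472) and -0.87 (SE 0.187, adjusted p = 0.0278). The RT call held only without RT WT library 3 (-0.63 to -0.48 over the 6 fits), and the TN call only without TN WT library 3 or TN *Txnip*-/- library 3 (-1.02 to -0.68). With no filter on low TPM both calls were lost, and that at RT was also lost with the replicate number as a block and with all 12 libraries in 1 fit.

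At TN the carboxylesterase gene *Ces2g* was higher (2.27 ± 0.381 against 0.958 ± 0.12 TPM, log2 0.74, adjusted p = 0.013) and *Lypla1*, a depalmitoylating thioesterase, lower (73.9 ± 5.56 against 93.1 ± 1.33 TPM, log2 -0.33, adjusted p = 0.0287). The WT mean of *Ces2g* was under the filter of 1 TPM, so that gene was tested only through the *Txnip*-/- libraries. The *Lypla1* call held only without TN *Txnip*-/- library 3, with values of -0.37 to -0.27, and was lost with the deposited log2 values. With temperature 2 of 15 rose in each genotype and 1 fell in WT and 3 in *Txnip*-/-, with medians of 0.05 and -0.10. *Nceh1*, a cholesteryl ester hydrolase, rose by 0.45 in WT and 0.98 in *Txnip*-/-, and *Ces2g* by 0.34 and 0.73. From RT to TN *Ces2g* went from 0.545 to 0.958 TPM in WT and from 0.971 to 2.27 TPM in *Txnip*-/-. It was thus tested for temperature only through the TN *Txnip*-/- libraries. The *Ces2g* call in WT was lost in 4 of the fits that left out 1 library and with upper-quartile scaling. In *Txnip*-/- *Lypla1* fell by 0.37 and *Lactb*, a mitochondrial serine protease-like protein, by 0.34, calls lost in 2 and 3 such fits. *Pafah2*, which clears oxidised phospholipids, fell by 0.74 in WT and 0.82 in *Txnip*-/- on the log2 scale.

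Reported regulators of paraoxonase transcription, transcription factors apart from the kinase gene *Prkca*, numbered 17, of which 14 were tested. At RT 0 of 14 were called, with 1 at an unadjusted limma p under 0.05, and the median was 0.01. At TN 0 were called higher and 1 lower, with a median of -0.05. The one called was *Jun*, a subunit of AP-1, at 77.95 ± 2.36 TPM in WT and 45.4 ± 10.7 TPM in *Txnip*-/- (log2 -0.79, adjusted p = 0.0191), and its call was lost without any 1 of the TN WT libraries, with values of -0.95 to -0.61, with no filter on low TPM and with all 12 libraries in 1 fit. *Ppara*, the fatty acid receptor, was not called. It stood at 155, 128 and 145 TPM in TN WT and 66.3, 40.0 and 111 TPM in TN *Txnip*-/- (log2 -1.09, SE 0.306, adjusted p = 0.0656), and is named although it fell outside the naming rule, after its values were seen. With temperature 6 rose and 1 fell in WT and 3 rose and 1 fell in *Txnip*-/-, with medians of 0.37 and 0.14. *Jun* rose by 1.44 and 1.47. In WT the sterol regulator *Srebf1* rose by 0.77 and the adipocyte regulator *Pparg* by 0.56, calls lost in 5 and 2 of the fits that left out 1 library, the first also with upper-quartile scaling. In *Txnip*-/- *Sp1* rose by 0.48 and *Srebf2* by 0.34, the latter call lost in 2 such fits and with upper-quartile scaling. In WT their means rose too, from 10.0 to 14.7 TPM and from 12.8 to 17.5 TPM. For *Sp1* and *Srebf2* the difference between the genotypes did not pass the test (limma adjusted p = 0.939 and 0.826). *Nr1h3*, the sterol receptor LXR alpha, fell in both, by 0.50 and 0.56.

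Genes for synthesis and binding of coenzyme Q, the quinone that PON2 is reported to bind in mitochondria, numbered 13 and all were tested. At RT 0 were called, with 2 at an unadjusted limma p under 0.05, and the median was -0.06. At TN 0 were called higher and 2 lower, *Coq10a* (63.2 ± 3.26 against 95.4 ± 8.43 TPM, log2 -0.58, adjusted p = 0.00796) and *Coq6* (90.7 ± 1.18 against 119 ± 10.1 TPM, log2 -0.39, adjusted p = 0.0188), with a median of -0.20. The *Coq6* call was lost without TN *Txnip*-/- library 1 or 2, with values of -0.44 to -0.32, and with the deposited log2 values. With temperature 1 rose and 2 fell in WT, and 1 rose and 6 fell in *Txnip*-/-, with medians of -0.10 and -0.27. The largest change was that of *Coq10b*, a coenzyme Q carrier, which fell from 61.9 ± 6.96 to 17.5 ± 2.95 TPM in WT and from 60.4 ± 6.04 to 17.8 ± 4.88 TPM in *Txnip*-/-. *Coq8a*, an atypical kinase of the pathway, rose by 0.53 and 0.64, and *Coq3*, a methyltransferase, fell by 0.33 in WT, a call lost in 3 of the fits that left out 1 library, and by 0.48 in *Txnip*-/-. *Coq10a* fell by 0.56 in *Txnip*-/-.

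**Figure D5:**
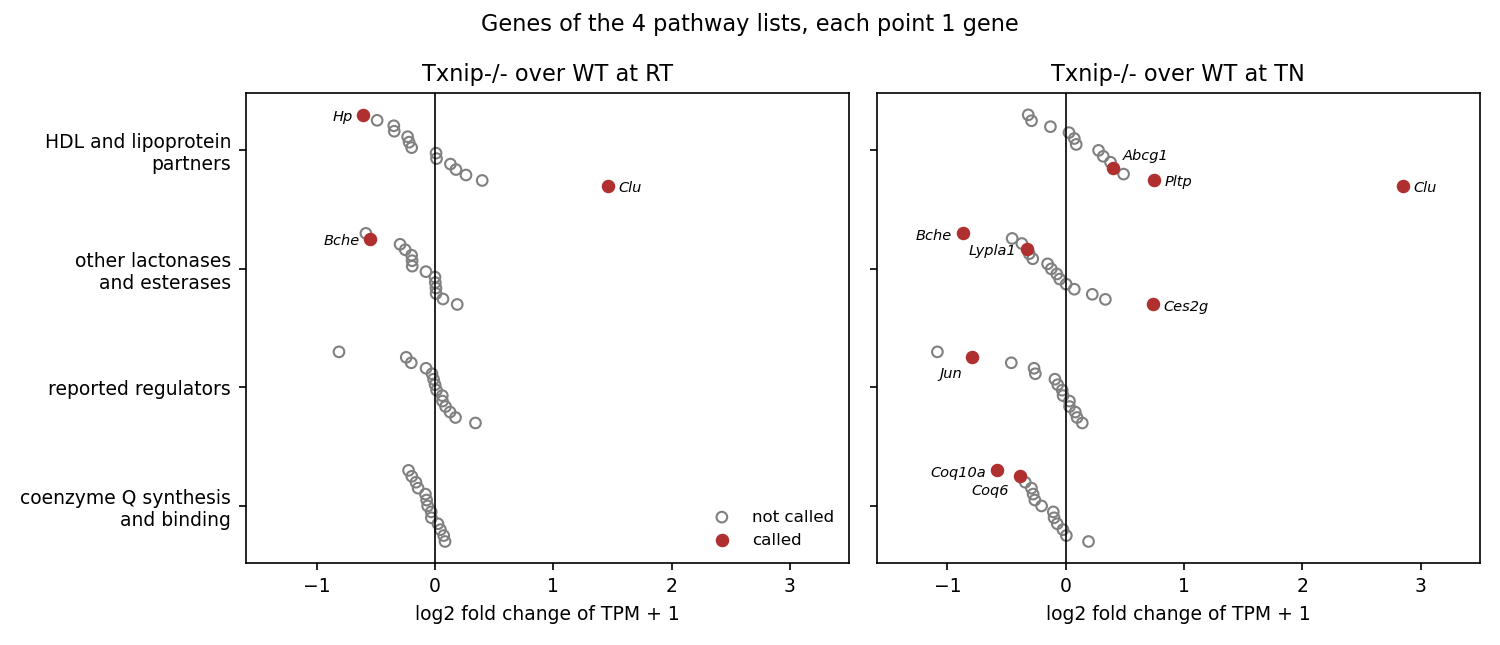
Log2 difference of *Txnip*-/- from WT at RT (left) and TN (right) for the tested genes of the 4 lists, each point 1 gene, ordered within its list. Filled points were called by limma, 3 at RT and 9 at TN, with *Clu* farthest from 0 at both temperatures.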

How the data were processed

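BAT from male mice was profiled by single-end RNA-seq of polyadenylated RNA in 12 libraries, 3 in each of 4 groups. The authors aligned reads to mm10 with STAR (2.7.5a) and counted exon reads with HOMER (4.11.1), keeping 1 transcript for each gene, and deposited the result as TPM. They also deposited log2 values for each temperature, from the DESeq2 step of their pipeline, whose transform is not given in the sources used here and which were used only as an alternative. Columns with the authors' own fold changes and p-values were not used. How TPM was normalised limits comparison to shares of each library, and TPM keeps no read depth.

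From the TPM, log2(TPM + 1) was tested with limma (3.58.1, R 4.3.3, trend) for genes with a mean of at least 1 TPM in the libraries of the fit: the 6 of a temperature for genotype, all 12 with 4 group means for temperature. Genes were called at a fold above 1.25 or below 0.8 and a Benjamini-Hochberg adjusted p under 0.05. The members and gene lists were chosen with earlier results of these data known, so no p is given for a member by genotype and no list was tested as a set. Named besides the members were *Txnip*, up to 3 called genes of each sign from each list and comparison, all neighbours within 500 kb and the 5 genes closest to each member. By this rule, a list gene named for temperature in 1 genotype may have changed in the other as well. Promoters were RefSeq's (GRCm38.p6). The code was tested on simulated data. Alternatives were a pseudocount of 0.1, no filter, upper-quartile scaling, a replicate block, other sets of libraries in the fit, the deposited log2 values, each library left out, windows of 250 and 1000 kb and rank correlation.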

Additional observations from a re-analysis of the deposited data

Results flagged for a closer look

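The loss of *Txnip* transcript differed between the temperatures. The log2(TPM + 1) difference of *Txnip*-/- from WT came to -4.36 for RT and -6.46 for TN. The second minus the first was -2.09 (SE 0.199, limma interaction over 12 libraries, adjusted p = 0.00345). *Txnip* was higher at TN than at RT in WT (1131 against 613 TPM) and lower at TN in *Txnip*-/- (11.98 against 29.0 TPM). No other gene with values in the text passed the test of this difference, in which the members had no p.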

How the results depend on the processing

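The genotype difference of *Pon1* kept its sign in every setting tried but not its size. At RT it was -3.05 with a pseudocount of 0.1, and with the deposited log2 values it was -1.36 at RT and -1.43 at TN. With those values *Pon3* at RT was -0.28. The transform behind them is not given in the sources used here, and the cause was not tested. No member was called between temperatures in any setting, since none passed both thresholds at once. Leaving out 1 library took *Pon1* in WT from -0.20 to 0.37, the latter past the fold threshold (limma adjusted p = 0.188), and *Pon3* in WT from -0.17 to 0.045. *Pon2* in *Txnip*-/- gave 0.20 (limma adjusted p = 0.0453) without RT *Txnip*-/- replicate 3. *Sgce* by genotype at RT, near 0 throughout, turned to -0.012 with upper-quartile scaling and -0.019 with the deposited log2 values, and ran from -0.025 to 0.044 when 1 library was left out.

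Counts of calls moved most. For genotype at RT (91 higher and 87 lower), no filter gave 20 and 24, and all 12 libraries in 1 fit gave 145 higher. Without 1 library they ran from 0 to 74 and from 2 to 85, and the fit without RT WT replicate 3 was the one near the full count. For genotype at TN (836 and 280), no filter gave 483 and 138, the deposited log2 values 184 lower, and leaving out 1 library 359 to 724 and 97 to 281, with the lowest counts without TN *Txnip*-/- replicates 1 (359 and 97) and 2 (361 and 103), then TN WT replicates 1 (530 and 173) and 3 (537 and 147). Temperature in WT gave 1205 lower with upper-quartile scaling against 798. Same-numbered libraries did not all deviate together: for WT and *Txnip*-/- their r was 0.30, -0.02 and 0.21 at RT and 0.04, 0.02 and -0.04 at TN. Between RT and TN it was 0.17, -0.13 and 0.11 in WT and 0.03, -0.03 and -0.05 in *Txnip*-/-. Since not every pair was above 0.1, the numbers were not taken to pair the libraries. With the replicate number as a block, genotype calls at RT were 48 higher and 52 lower, and no member's temperature call changed. The number of 3 libraries a group limits the precision of the temperature difference of *Pon1*, whose intervals were the widest of the members.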
